A study of Rattus norvegicus with 9 samples.

Results

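The annexins are 9 of the 10411 genes that carry a single symbol on the Affymetrix RAE230A array: Anxa1, Anxa2, Anxa3, Anxa4, Anxa5, Anxa6, Anxa7, Anxa8 and Anxa11. Every probeset (the set of short probes that reports 1 transcript) whose platform symbol was one of these names was taken, which gave 13 of 15923 probesets. Of these, 11 were among the 9100 probesets of highest signal that were tested, and the other 2, both of Anxa3, are described apart. RNA came from the first side branch of the saphenous artery, a small resistance vessel of the hind leg, in male rats aged 16 weeks. The 3 groups were untreated spontaneously hypertensive rats (SHR, an inbred strain with genetic hypertension), Wistar-Kyoto rats given ACTH (adrenocorticotropic hormone, which drives adrenal steroid release) subcutaneously for 4 weeks, and untreated Wistar-Kyoto rats (WKY, the normotensive strain). They are called SHR, ACTH and WKY here, with 3 arrays each. Rats labelled ACTH received 0.1 mg/kg/day according to their labels, whereas the methods of the study name a different dose. Each array held RNA pooled from 2 or 3 rats, so p-values measure only the spread between these pooled samples. No array held ACTH-treated SHR, and SHR differs from WKY in strain as well as in blood pressure.

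Annexins are cytosolic proteins whose core of repeated domains binds acidic phospholipids when calcium is present, which brings them to the inner face of membranes after a rise in calcium. They organise membrane rafts, secretion and endocytosis, cover membrane tears during repair and modulate ion channels, and the short N-terminal tail sets each member's partners, among them S100 and penta-EF-hand proteins. In arteries, annexins are known from both smooth muscle, where they shuttle between cytosol and sarcolemma during contraction, and endothelium, where Anxa2 serves as an assembly site for plasmin formation.

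Signals were on the linear MAS5 scale and had been brought to 1 target mean on every array: with 2% removed at each end, the mean signal was 150.03 to 150.04 on all 9 arrays. Median signals were 52.9 to 56.2 in SHR, 57.1 to 58.1 in ACTH and 52.3 to 57.2 in WKY. The GAPDH 3'/5' ratio, which rises as RNA becomes shorter, was 3.57 to 5.16 in SHR, 3.67 to 4.52 in ACTH and 4.91 to 5.99 in WKY. It thus moved partly with the groups: every ACTH array lay below every WKY array, while SHR 3, at 5.16, lay within the WKY range. Arrays were scanned on 4 days. SHR 1 and SHR 2 shared a day with WKY 2, SHR 3 shared a day with all ACTH arrays, WKY 1 and WKY 3 were alone on theirs, and no day held both ACTH and WKY arrays. WKY 2 correlated most closely with ACTH 1 (r = 0.96 over the tested probesets) and not with another WKY array. All 7 smooth muscle markers were among the tested probesets, with a summed signal of 20144 to 21899 in SHR, 19099 to 20262 in ACTH and 18256 to 22193 in WKY. Singly they went both ways for SHR against WKY, from a log2 fold change of -0.80 for Lmod1 to 0.23 for Tagln (median -0.19). The SHR arrays lay below all others for Lmod1 and above all others for Tagln. No marker of this list reached an adjusted p under 0.05 in limma in any comparison. These are bulk samples, in which fewer cells of a type and less RNA per cell cannot be told apart.

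In SHR arteries Anxa3 was higher than in WKY and Anxa8 was lower, each by about 1 unit of log2 signal. The F test over the 3 groups in limma passed the threshold of an adjusted p of 0.05 for these 2 of the 11 annexin probesets (Anxa8, adjusted p = 0.00648; Anxa3, adjusted p = 0.0166), against 4.11% of all tested probesets. For SHR against WKY, 2 of 11 were called where 2.04% of all tested probesets were, 1 of them higher (0.967% of all) and 1 lower (1.08% of all). The 3 SHR arrays lay entirely above the 3 WKY arrays for 5 annexin probesets (9.73% of all) and entirely below for 2 (9.64% of all), so that groups did not overlap for 7 of 11, against 19.4% of all tested probesets. At an unadjusted p under 0.05 there were 6, against 16.4% of all. The median log2 fold change of the 11 was 0.19, and it was -0.0046 over all tested probesets. The median size of the change, regardless of sign, was 0.33 for the annexins and 0.19 over all tested probesets. The annexins are few and were measured on the same arrays, and nothing particular to the family was tested.

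**Figure D1:**
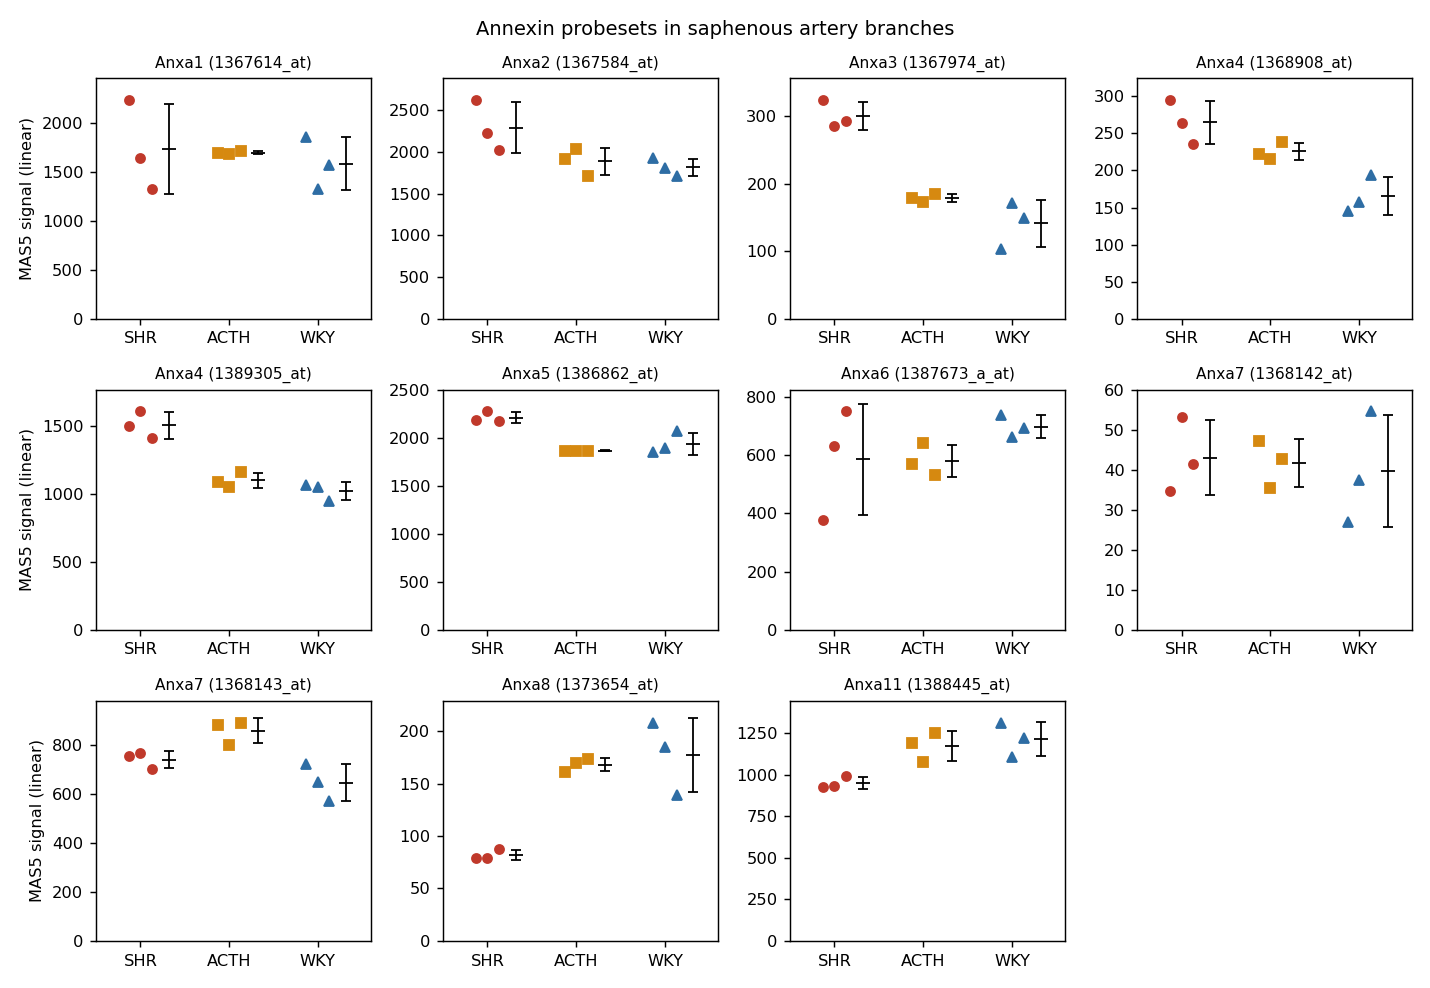
Linear MAS5 signal of the 11 tested annexin probesets on each array, with SHR (circles), ACTH (squares) and WKY (triangles) from left to right; the bar beside each group is the mean with the SD of 3 arrays, and every vertical axis starts at 0. The 3 SHR arrays of Anxa8 and of Anxa11 lie below all other arrays, those of Anxa3, Anxa4 1389305_at and Anxa5 lie above all others, and the groups overlap for Anxa1 and Anxa7 1368142_at.

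Anxa8, an annexin best known from epithelia and from leukaemic promyelocytes, showed the lowest adjusted p of the family. Its probeset 1373654_at read 79.0, 78.6 and 87.4 in SHR, 161.3, 169.6 and 173.0 in ACTH, and 208.1, 185.0 and 138.9 in WKY. All 3 SHR arrays were below every other array, the ACTH arrays lay within the range of the WKY arrays, and the WKY arrays were the most scattered. Mean signals were 81.6 ± 4.94 in SHR, 168.0 ± 6.0 in ACTH and 177.3 ± 35.2 in WKY (SD, n = 3 each). Anxa8 was 2.14-fold lower in SHR than in WKY, a log2 fold change of -1.10 ± 0.16 (SE; 95% interval -1.46 to -0.74; limma, adjusted p = 0.00630). ACTH differed from WKY by a log2 fold change of only -0.06 ± 0.16, with an interval of -0.42 to 0.30 (adjusted p = 0.929). SHR was also 2.06-fold lower than ACTH, by -1.04 ± 0.16 on the log2 scale (adjusted p = 0.00817). This last contrast is the test of whether the 2 models differ from each other, since the shared WKY arrays cancel in it. The study lists this probeset without a present call on the SHR arrays, so the SHR values may include background, for which no correction was made. All 7 epithelial markers on the array, among them Epcam, Cdh1 and Krt18, were outside the tested probesets, with a summed signal of 118.0 to 144.9 in SHR, 101.5 to 143.3 in ACTH and 106.7 to 123.5 in WKY, and no single probeset of theirs was above 46.5.

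The direction held within the scan days: on the day that held both, SHR 1 and SHR 2 lay below WKY 2 by a log2 difference of -1.23, and on the other, SHR 3 lay below the ACTH arrays by -0.94. With the scan days as blocks, adjusted p was 0.0846 against WKY and 0.0995 against ACTH, and with the GAPDH ratio as a covariate it was 0.148 against WKY with a log2 fold change of -0.94. Adjusted over all 15866 non-control probesets, it was 0.0532 against WKY and 0.0680 against ACTH.

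Anxa3, which is abundant in neutrophils and has been described in endothelial cells, was the annexin called higher in SHR. Probeset 1367974_at read 323.8, 285.4 and 292.5 in SHR, 179.0, 172.6 and 185.0 in ACTH, and 103.6, 171.4 and 149.5 in WKY. The lowest SHR array exceeded every other array by a wide margin, and the ACTH arrays lay just above WKY 2, the highest WKY array. Means were 300.5 ± 20.4 in SHR, 178.9 ± 6.22 in ACTH and 141.5 ± 34.6 in WKY (SD, n = 3 each). Anxa3 was 2.17-fold higher in SHR than in WKY, a log2 fold change of 1.12 ± 0.18 (SE; 95% interval 0.71 to 1.52; limma, adjusted p = 0.0106). SHR against ACTH gave 0.75 ± 0.18 (adjusted p = 0.0537), which missed the threshold although the arrays did not overlap. This contrast was called in 10 of 22 processing alternatives, among which are the unadjusted thresholds of the study's methods, and for Anxa8 the same contrast was called in 20. ACTH against WKY gave 0.37 ± 0.18 (adjusted p = 0.464). Within the shared scan days the log2 difference was 0.83 for SHR 1 and SHR 2 over WKY 2, and 0.71 for SHR 3 over the ACTH arrays. The call against WKY was lost when scan day entered the fit (0.83, adjusted p = 0.212) and with the GAPDH ratio as a covariate (1.11, adjusted p = 0.150). It was also lost over all 15866 non-control probesets (adjusted p = 0.0816) and in the contrasts without moderation (adjusted p = 0.0715).

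The other 2 Anxa3 probesets had low signals and were not tested in the main comparison. Probeset 1380751_at read 45.9, 33.2 and 32.9 in SHR, 5.26, 3.77 and 24.7 in ACTH, and 14.3, 28.2 and 7.61 in WKY, again with every SHR array above all others. Its log2 fold change for SHR against WKY, fitted over all 15866 non-control probesets, was 1.34 ± 0.73 (adjusted p = 0.558). Probeset 1367975_at stayed between 1.78 and 15.0 on all arrays, near the bottom of the scale, and gave -0.58 ± 0.52 (adjusted p = 0.725). The 3 probesets therefore do not give 1 direction, and only 1367974_at had a signal well clear of the low range. Neutrophil markers S100a8 and S100a9 were both outside the tested probesets, with a summed signal of 8.95 to 29.8 in SHR, 7.47 to 13.3 in ACTH and 3.29 to 21.2 in WKY.

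The bases before the annotated start of Anxa3 and Anxa8, the called members, and of Anxa4, which came closest after them, are shown from RefSeq (build GRCr8, whose animals are neither SHR nor WKY) as 250 bases on the gene's own strand, 5′ to 3′. Capitals mark GC boxes (GGGCGG), the Sp1-type site common in promoters without a TATA box.
Anxa3 (chr14:13085598-13085847, minus strand): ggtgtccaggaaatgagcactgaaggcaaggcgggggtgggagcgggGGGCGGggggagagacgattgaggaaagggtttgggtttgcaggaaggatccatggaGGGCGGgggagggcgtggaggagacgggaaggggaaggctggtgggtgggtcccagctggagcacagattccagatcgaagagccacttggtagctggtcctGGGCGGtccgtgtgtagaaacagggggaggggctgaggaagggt
Anxa4 (chr4:120798514-120798763, minus strand): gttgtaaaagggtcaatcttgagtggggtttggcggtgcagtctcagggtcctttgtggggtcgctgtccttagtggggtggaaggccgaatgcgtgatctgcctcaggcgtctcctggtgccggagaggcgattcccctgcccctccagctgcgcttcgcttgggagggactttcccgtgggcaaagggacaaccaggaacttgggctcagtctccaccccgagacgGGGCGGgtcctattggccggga
Anxa8 (chr16:9403137-9403386, plus strand): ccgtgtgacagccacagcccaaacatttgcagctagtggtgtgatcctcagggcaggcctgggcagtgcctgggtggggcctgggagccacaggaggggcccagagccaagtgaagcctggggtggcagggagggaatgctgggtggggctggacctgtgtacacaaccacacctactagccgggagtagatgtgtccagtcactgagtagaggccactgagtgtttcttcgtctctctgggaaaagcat
Anxa3 held 3 GC boxes and 10 CpG dinucleotides, Anxa4 held 1 and 14, and Anxa8 held no GC box and 3 CpG. Their GC content was 64.0%, 62.4% and 60.4%, against a median of 51.2% over 33465 rat promoters of that length. RefSeq sequences matched 8 of the 9 members, and of those 8, 5 held GGGCGG on either strand (30.5% of all promoters), 1 held the AP-1 site TGANTCA (6.34%) and 2, Anxa1 and Anxa2, held TATAAA (12.9%). None held the glucocorticoid receptor half-site AGAACA (17.5% of all promoters) or the full palindromic glucocorticoid response element, in which this half-site is contained (0.012%). These are matches of letters in a short window and say nothing of binding by a factor.

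Anxa4, which binds secretory granule membranes and dampens calcium-activated chloride current in epithelial cells, was reported by 2 probesets that both lay higher in SHR without passing the threshold. Probeset 1368908_at read 294.8, 264.0 and 236.2 in SHR, 222.9, 216.0 and 239.0 in ACTH, and 145.8, 157.0 and 193.8 in WKY. All SHR and all ACTH arrays were above all WKY arrays, while SHR 3 lay within the ACTH range. SHR against WKY gave a log2 fold change of 0.68 ± 0.15 (1.61-fold, adjusted p = 0.0512), and ACTH against WKY gave 0.46 ± 0.15 (1.37-fold, adjusted p = 0.227). Probeset 1389305_at read 1499, 1609 and 1410 in SHR, 1087, 1056 and 1161 in ACTH, and 1068, 1055 and 947.5 in WKY. Here the SHR arrays stood above all others and ACTH overlapped WKY. SHR against WKY gave 0.56 ± 0.13 (1.47-fold, adjusted p = 0.0590), SHR against ACTH gave 0.45 ± 0.13 (adjusted p = 0.0947) and ACTH against WKY gave 0.11 ± 0.13 (adjusted p = 0.813). The 2 probesets thus gave like values for SHR against WKY and unlike ones for ACTH. Both passed the threshold for SHR against WKY when only probesets with a mean signal of at least 100 were tested, after adding 16 to the signals and with a variance trend. Only 1368908_at passed with quantile normalization (adjusted p = 0.0498), and only 1389305_at in the contrasts without moderation (adjusted p = 0.0380). Adjusted p for 1368908_at and 1389305_at was instead 0.441 and 0.358 with the GAPDH ratio as a covariate, 0.212 and 0.348 with the scan days as blocks, and 0.196 and 0.192 over all non-control probesets.

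**Figure D2:**
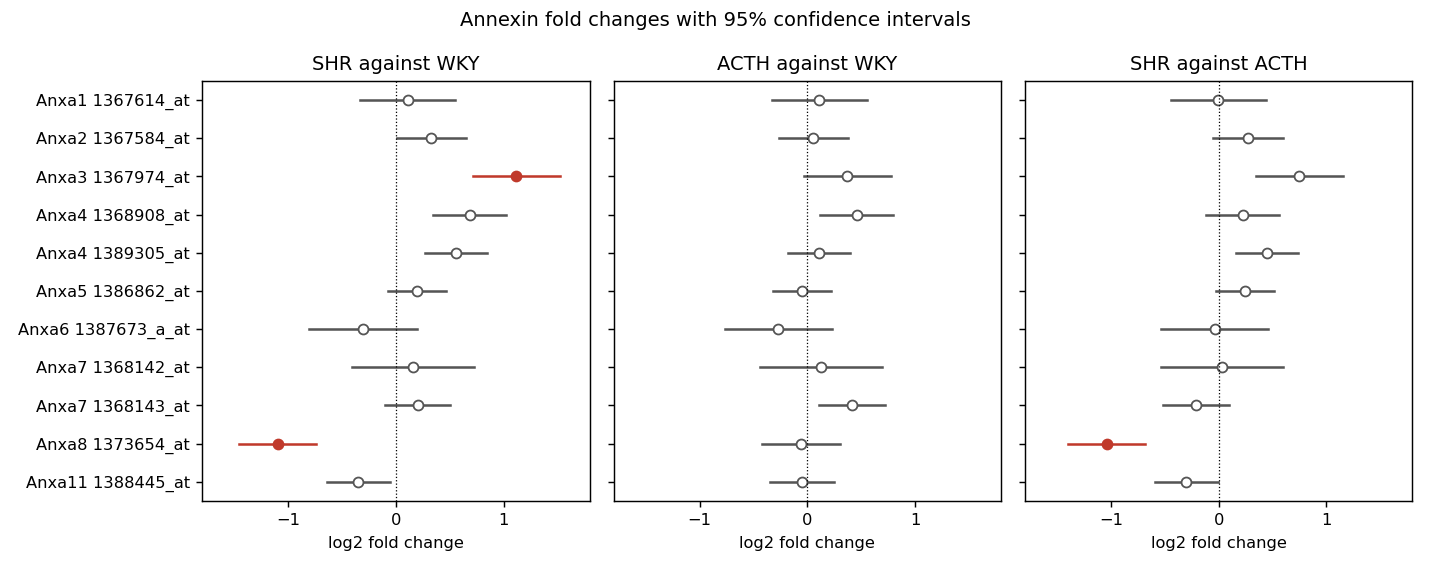
Log2 fold change of each tested annexin probeset for SHR against WKY, ACTH against WKY and SHR against ACTH, with 95% confidence intervals from limma; filled red points have an adjusted p under 0.05 over all tested probesets. Anxa3 (1.12) and Anxa8 (-1.10) are filled for SHR against WKY, Anxa8 alone (-1.04) for SHR against ACTH, and none for ACTH against WKY.

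Anxa1, the glucocorticoid-induced protein that restrains phospholipase A2 and signals through formyl peptide receptors, read 2232, 1638 and 1324 in SHR, 1691, 1685 and 1715 in ACTH, and 1861, 1325 and 1570 in WKY (probeset 1367614_at). The ACTH arrays were nearly identical and lay inside both other groups, which overlapped. The log2 fold change was 0.11 ± 0.20 for SHR against WKY (adjusted p = 0.831) and 0.11 ± 0.20 for ACTH against WKY (adjusted p = 0.883). The interval for ACTH, -0.33 to 0.55, covers changes of that size in either direction. Anxa2, which pairs with the S100a10 dimer at the plasma membrane, read 2618, 2230 and 2018 in SHR, 1915, 2037 and 1714 in ACTH, and 1920, 1806 and 1714 in WKY (probeset 1367584_at). Every SHR array was above every WKY array, and SHR 3 was within the ACTH range. Its log2 fold change was 0.33 ± 0.15 for SHR against WKY (adjusted p = 0.297) and 0.06 ± 0.15 for ACTH against WKY (adjusted p = 0.922).

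Anxa5, the annexin used to label exposed phosphatidylserine, read 2186, 2278 and 2176 in SHR, 1870, 1861 and 1869 in ACTH, and 1851, 1893 and 2070 in WKY (probeset 1386862_at). The SHR arrays were above all others by a small margin. The log2 fold change was 0.19 ± 0.12 for SHR against WKY (adjusted p = 0.461) and 0.25 ± 0.12 for SHR against ACTH (adjusted p = 0.340). Anxa6, a large annexin with a duplicated core that is found at the sarcolemma of smooth muscle, read 377.2, 630.7 and 749.5 in SHR, 567.7, 640.5 and 530.9 in ACTH, and 737.2, 660.0 and 693.3 in WKY (probeset 1387673_a_at). SHR 1 was far below the other SHR arrays, SHR 3 was the highest of all 9, and the ACTH arrays lay below all WKY arrays. The log2 fold change was -0.31 ± 0.23 for SHR against WKY (adjusted p = 0.532) and -0.27 ± 0.23 for ACTH against WKY (adjusted p = 0.705). Without SHR 1 the SHR against WKY value was -0.0179, and without SHR 3 it was -0.51.

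Anxa7 and Anxa11 share long N-terminal tails that bind penta-EF-hand proteins, Anxa7 sorcin and Anxa11 the product of Pdcd6. Anxa7 probeset 1368143_at read 753.3, 765.2 and 698.8 in SHR, 881.1, 797.8 and 890.0 in ACTH, and 719.7, 647.1 and 569.3 in WKY. It was the only annexin probeset whose ACTH arrays stood above both other groups. ACTH against WKY gave a log2 fold change of 0.41 ± 0.14 (1.33-fold, adjusted p = 0.227) and SHR against WKY 0.20 ± 0.14 (adjusted p = 0.497). The other Anxa7 probeset, 1368142_at, read 34.6 to 53.3 in SHR, 35.4 to 47.2 in ACTH and 26.8 to 54.6 in WKY, with full overlap and a log2 fold change of 0.16 ± 0.26 for SHR against WKY (adjusted p = 0.803). Anxa11 read 926.5, 933.4 and 990.4 in SHR, 1192, 1074 and 1252 in ACTH, and 1313, 1107 and 1221 in WKY (probeset 1388445_at). Every SHR array was below every other array. The log2 fold change was -0.35 ± 0.13 for SHR against WKY (adjusted p = 0.234) and -0.30 ± 0.13 for SHR against ACTH (adjusted p = 0.277).

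For ACTH against WKY, limma called 0 of the 11 annexin probesets, against 1.21% of all tested probesets (0.549% higher and 0.659% lower), and the same contrasts without moderation called 0 after adjustment. At an unadjusted p under 0.05 there were 2, Anxa4 1368908_at and Anxa7 1368143_at, against 12.5% of all tested probesets. The groups did not overlap for 4 of 11, against 20.5% of all, with ACTH above WKY for 3 (10.7% of all) and below for Anxa6 (9.77% of all). The median log2 fold change of the annexins was 0.11, and it was 0.02 over all tested probesets.

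For SHR against ACTH, 1 of 11 was called, Anxa8, against 3.41% of all tested probesets (1.58% higher and 1.82% lower). At an unadjusted p under 0.05 there were 4, against 17.2% of all. The groups did not overlap for 6 of 11, against 24.9% of all, with SHR above ACTH for Anxa3, Anxa4 1389305_at and Anxa5 (11.7% of all were above), and below for Anxa7 1368143_at, Anxa8 and Anxa11 (13.3% of all were below). The comparisons share arrays, SHR against WKY and SHR against ACTH through the SHR arrays and both WKY comparisons through WKY, so that agreement between them adds no independent evidence.

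**Figure D3:**
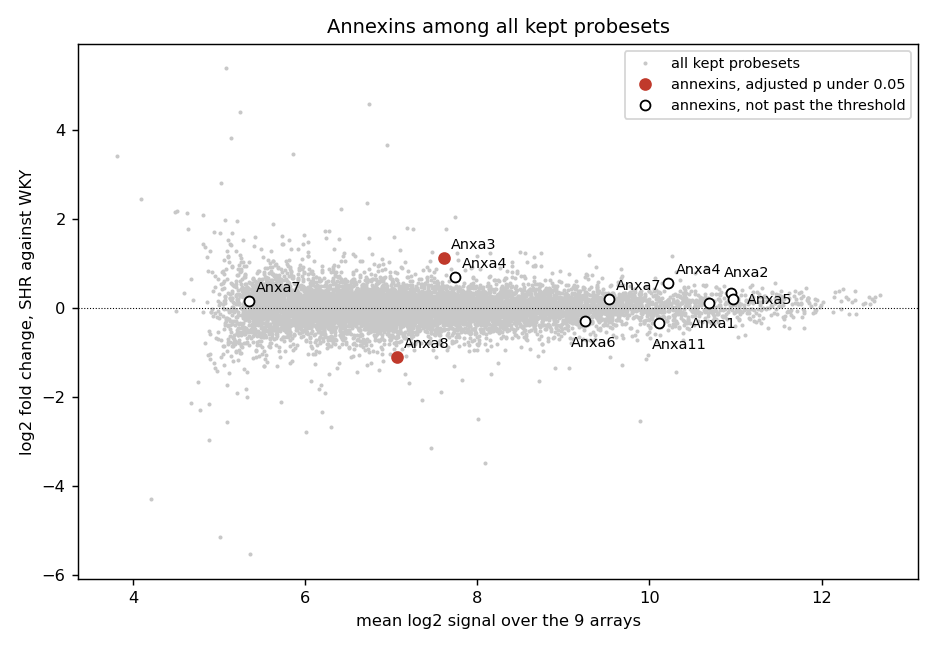
Log2 fold change of SHR against WKY plotted against the mean log2 signal over the 9 arrays for all 9100 tested probesets (grey), with annexin probesets called (red, filled) and not called (open). Anxa3 and Anxa8 lie at the edge of the cloud at moderate signal, and Anxa1, Anxa2, Anxa5 and Anxa11 lie between -0.35 and 0.33 at high signal.

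Of 64 genes listed as annexin partners or members of annexin pathways, 32 were tested with 34 probesets. For SHR against WKY 1 was called higher and 1 lower, against 2.04% of all tested probesets called. For ACTH against WKY limma called 0, against 1.21% of all, and 3 had an unadjusted p under 0.05, against 12.5% of all. For SHR against ACTH 1 was called higher, against 3.41% of all called. Myof (myoferlin, a calcium-binding ferlin of membrane repair) read 338.3, 287.5 and 325.3 in SHR, 184.6, 152.3 and 183.9 in ACTH, and 173.7, 205.6 and 200.8 in WKY. All SHR arrays were above all others. It was 1.64-fold higher in SHR than in WKY (log2 fold change 0.71 ± 0.15, adjusted p = 0.0344) and 1.83-fold higher than in ACTH (0.87 ± 0.15, adjusted p = 0.0105). Tnc (tenascin C, a matrix protein that binds annexin A2) read 48.9, 46.7 and 29.0 in SHR, 55.3, 80.0 and 56.2 in ACTH, and 208.9, 110.4 and 126.2 in WKY. The groups did not overlap between either model and WKY. It was 3.53-fold lower in SHR than in WKY (log2 fold change -1.82 ± 0.28, adjusted p = 0.00719), and ACTH against WKY gave -1.18 ± 0.28 (adjusted p = 0.0887). Tnc had been listed with the plasminogen genes of the Anxa2 surface route, but it is a matrix glycoprotein and no protease or protease activator.

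**Figure D4:**
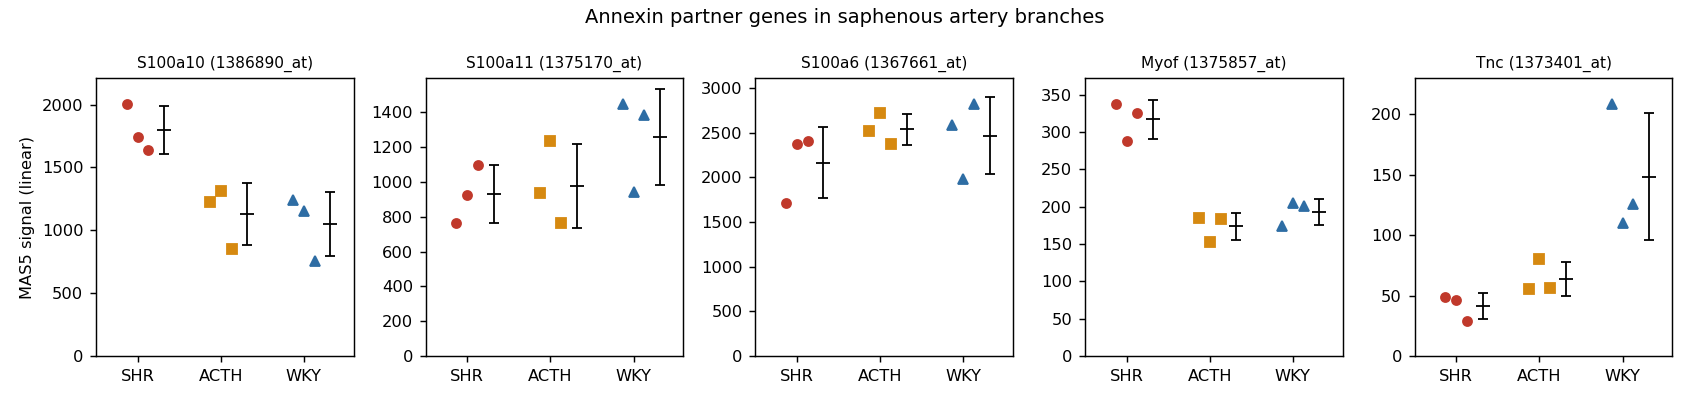
Linear MAS5 signal on each array of 3 S100 partners and the 2 called partner genes, with SHR (circles), ACTH (squares) and WKY (triangles) from left to right; the bar beside each group is the mean with the SD of 3 arrays. S100a10 and Myof are highest on the 3 SHR arrays, and Tnc is lowest on them.

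S100a10, the partner of Anxa2 in the heterotetramer, read 2007, 1746 and 1641 in SHR, 1227, 1311 and 847.3 in ACTH, and 1237, 1155 and 757.1 in WKY. Every SHR array was above every other array, as was the case for Anxa2 against WKY but not against ACTH. The log2 fold change for SHR against WKY was 0.80 ± 0.22 (adjusted p = 0.108). S100a11, a partner of Anxa1, gave -0.43 ± 0.23 (adjusted p = 0.385), and S100a6, which binds several annexins, gave -0.19 ± 0.18 (adjusted p = 0.649), both with overlapping groups. Of 8 tested S100 genes limma called 0 in any comparison, with 3 at an unadjusted p under 0.05 for SHR against WKY (16.4% of all tested probesets), 0 for ACTH against WKY (12.5% of all) and 3 for SHR against ACTH (17.2% of all). The 7 penta-EF-hand and calpain genes (8 probesets) had a median log2 fold change of 0.03 for SHR against WKY and the 6 membrane repair and ESCRT genes 0.06, with 0 called in either list and 0 and 1 at an unadjusted p under 0.05. Pdcd6, the partner of Anxa11, gave 0.26 ± 0.14 (adjusted p = 0.378), and Sri, which encodes sorcin, gave 0.003 ± 0.13 (adjusted p = 0.993).

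Among markers of other cells, endothelial genes went both ways: Emcn was higher in SHR than in WKY (log2 fold change 1.15 ± 0.20, adjusted p = 0.0167) and Vwf lower (-1.28 ± 0.21, adjusted p = 0.0117). Kdr (0.87 ± 0.19, adjusted p = 0.0508), Pecam1 (0.54 ± 0.19, adjusted p = 0.208) and Tie1 (0.31 ± 0.20, adjusted p = 0.462) gave positive values without passing, so that the median of the 5 was 0.54. Their summed signal ran against this median, at 1488 to 1682 in SHR, 1611 to 1845 in ACTH and 1717 to 1971 in WKY. Such a linear sum gives most weight to the brightest probeset, and a single signal of this list reached 1350. The sum for the 5 macrophage genes was 363.2 to 447.2 in SHR, 568.9 to 775.2 in ACTH and 182.4 to 454.7 in WKY. Of them only Cd14 was called, lower in SHR than in ACTH (-0.83 ± 0.18, adjusted p = 0.0372). All 5 were positive for ACTH against WKY, each at an unadjusted p under 0.05 in limma (12.5% of all tested probesets) but not called. The sum for the 5 fibroblast genes was 10303 to 12767 in SHR, 7692 to 9584 in ACTH and 11078 to 12620 in WKY. Its members were not of 1 direction for ACTH against WKY, with both Col1a1 probesets called lower (-1.91 ± 0.26, adjusted p = 0.00853, and -2.23 ± 0.38, adjusted p = 0.0230), Col3a1 at -0.76 and Lum at -0.38, but Dcn at 0.50 and Pdgfra at 0.53, none of these 4 called. Schwann cell genes summed to 1826 to 2218 in SHR, 1988 to 2140 in ACTH and 1496 to 2260 in WKY, and adipocyte genes to 79.7 to 99.5 in SHR, 36.6 to 65.0 in ACTH and 35.0 to 91.9 in WKY. Skeletal muscle genes, none of them among the tested probesets, summed to 79.5 to 94.2 in SHR, 61.4 to 70.9 in ACTH and 57.6 to 107.2 in WKY. Their part in the annexin values was not tested.

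The probesets of other genes most like the annexins in pattern were taken by Pearson's r of log2 signal over the 9 arrays, which share their groups, so the values are descriptive. For Anxa8 they were Plekhf2 (r = 0.97), Prkci (r = 0.97) and Srd5a3 (r = 0.97). Plekhf2 averaged 117.1 in SHR, 285.3 in ACTH and 292.4 in WKY. For Anxa3 they were Creg1 (r = 0.97), Srxn1 (r = 0.97) and Cbl (r = 0.97), of which Srxn1 averaged 145.5 in SHR, 96.2 in ACTH and 71.0 in WKY. Creg1 averaged 46.8 in SHR, 12.3 in ACTH and 10.7 in WKY, and Cbl 72.1, 29.6 and 19.5, so both were low outside SHR. Their SHR arrays lay above all others and thus set the third-highest signal by which both were kept. For Anxa4 1389305_at they were Msl3 (r = 0.96), Tppp (r = 0.95) and Manba (r = 0.95), of which Manba averaged 142.2 in SHR, 72.4 in ACTH and 63.7 in WKY. As the choice by likeness implies, these genes followed the order of the groups shown by the annexin they were matched to.

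**Figure D5:**
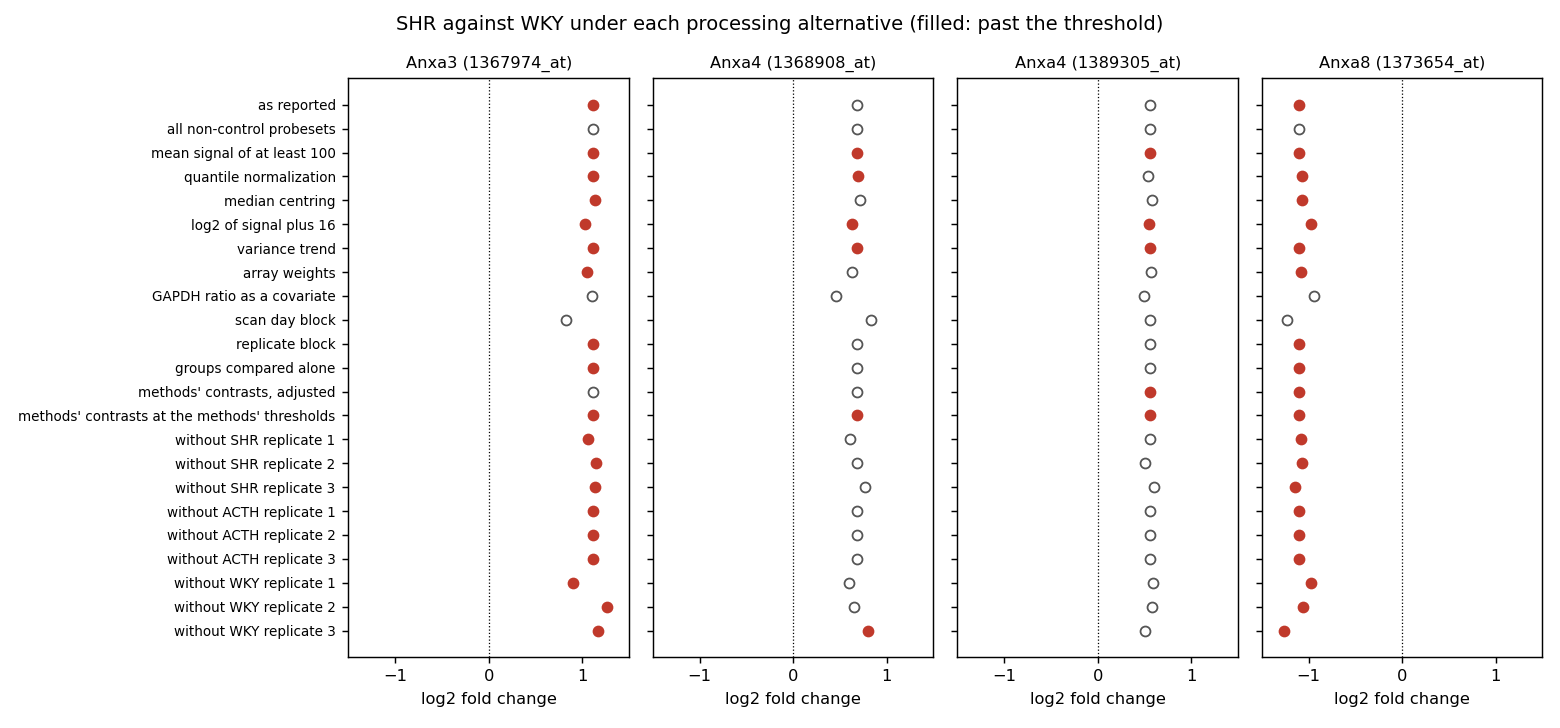
Log2 fold change of SHR against WKY for Anxa3, both Anxa4 probesets and Anxa8 as reported (top) and under each processing alternative, down to each array left out. Filled red points passed the threshold, an adjusted p under 0.05 except in the setting with the methods' unadjusted thresholds. Signs never changed in these panels, with Anxa3 between 0.83 and 1.27, Anxa8 between -1.27 and -0.94, and the Anxa4 probesets filled under only some settings.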

How the data were processed

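RNA of the 9 pools was amplified by a 2-cycle protocol and hybridised to RAE230A arrays. The deposited intensity values were computed by the authors in MAS5 and scaled to a target of 150 on each array, on a linear scale; detection calls were not used here beyond the remark on Anxa8. Scan days came from the deposited experiment records. Probesets were ranked by their third-highest signal, and the top 9100 of 15866 non-control probesets were kept (minimum 44.3), and symbols came from the platform annotation. Limma 3.58.1 under R 4.3.3 was used to fit the groups to log2 intensities (empirical Bayes without trend, 6 residual and 4.43 prior degrees of freedom), two-sided, with Benjamini-Hochberg adjustment over the kept probesets. The fit was tested on simulated data. Members and lists were chosen with earlier results of these data known. All annexin probesets are described; partner genes are named where called, as are S100a10, S100a11 and S100a6, and Pdcd6 and Sri were named after their values were seen. The 3 likest probesets are named for the 3 annexin probesets of lowest F test p. Alternatives were the filter, the normalization, 16 added to signals, variance trend, array weights, GAPDH ratio, scan day and replicate blocks, groups fitted alone, the tests of the study's methods and leaving out single arrays. No coordinates of probes are given, since the files name no genome build.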

Additional observations from a re-analysis of the deposited data

Results flagged for a closer look

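Anxa8 1373654_at stood out because the 2 models differed from each other: SHR against ACTH gave a log2 fold change of -1.04 (limma, adjusted p = 0.00817), which is the test of the difference between their changes from WKY, -1.10 in SHR and -0.06 in ACTH. Anxa3 1380751_at stood out among probesets outside the main comparison: it averaged 37.3 in SHR, 11.2 in ACTH and 16.7 in WKY, with every SHR array above every WKY array, but its third-highest signal, 32.9, was below the limit for testing.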

How the results depend on the processing

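The number of arrays, 3 a group, limits the precision. As reported, 2 annexin probesets were called for SHR against WKY, 0 for ACTH against WKY, 1 for SHR against ACTH and 2 in the F test. Testing all non-control probesets gave 0 calls for SHR against WKY, SHR against ACTH and the F test, with 72 probesets called in all for SHR against WKY, where 186 were called as reported; both the adjustment and the moderated variances differ there. A mean signal of at least 100 gave 4, 2 and 4 for these, with 169, 283 and 307 probesets called in all. A variance trend gave 4, 3 and 4, with 237, 378 and 489 called in all, where 186, 310 and 374 were called as reported. Quantile normalization, median centring and the groups compared alone gave 2 for SHR against ACTH, with 341, 325 and 327 called in all. Array weights gave 3 there, with 884 called in all. For SHR against WKY, quantile normalization gave 3 (190 called in all). Adding 16 to signals gave 4 for SHR against WKY (228 called in all) and 2 for SHR against ACTH (369 called in all). The GAPDH ratio as a covariate gave 0 for SHR against WKY and 1 in the F test. As given above, Anxa3 and Anxa8 no longer passed the threshold with the scan day block. That block leaves WKY 2 alone to stand for WKY, so its number of calls is not given, and further causes were not tested. With the GAPDH ratio as a covariate, 34 probesets were called in all for SHR against WKY and 177 in the F test. At the methods' unadjusted thresholds there were 6 for SHR against WKY, 2 for ACTH against WKY, 5 for SHR against ACTH and 7 in the F test. These thresholds carry no adjustment for the number of probesets, and the share of all tested probesets that passed them is not given here. Leaving out 1 array gave 2 to 3 for SHR against WKY (3 without WKY 3), 0 to 0 for ACTH against WKY, 1 to 2 for SHR against ACTH (2 without WKY 1 or WKY 2) and 1 to 2 in the F test (1 without any SHR array). The totals over all tested probesets are not given for these fits.

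Replicate numbers did not pair the arrays: deviations of same-numbered arrays correlated from -0.067 to 0.128, over 0.1 in 1 of 9 pairs. With the replicate block the counts were 2 for SHR against WKY and 0 for ACTH against WKY, with 158 and 97 called in all. They were 1 for SHR against ACTH and 2 in the F test, with 262 and 311 called in all. Of 723 alternative fold changes, 652 kept sign and side of the threshold, 30 came to pass it, 9 no longer passed it and 32 turned sign, all of the last among uncalled ones. In the setting with the methods' unadjusted thresholds, passing meant those thresholds, so the 30 include changes whose adjusted p was above 0.05. The GAPDH covariate turned Anxa1 (-0.26 for SHR against WKY, -0.28 for ACTH against WKY, 0.0227 for SHR against ACTH), Anxa2 (-0.0246) and Anxa8 (0.11) for ACTH against WKY, Anxa6 (0.10 for SHR and 0.17 for ACTH, each against WKY) and Anxa7 1368142_at (-0.0102 and -0.0544). The scan day block turned Anxa5 for ACTH against WKY (0.0162), and Anxa6 (0.38) and Anxa7 1368142_at (-0.0045) for SHR against ACTH. Quantile normalization turned Anxa7 1368142_at for ACTH against WKY (-0.0093), median centring Anxa1 (0.0363) and Anxa6 (0.0026) and array weights Anxa6 (0.15) for SHR against ACTH. Leaving out 1 array gave Anxa1 -0.0925 to 0.28, -0.0104 to 0.23 and -0.20 to 0.17 for SHR against WKY, ACTH against WKY and SHR against ACTH, Anxa7 1368142_at -0.0954 to 0.42, -0.13 to 0.38 and -0.13 to 0.18, Anxa6 -0.51 to -0.0179 for SHR against WKY and -0.24 to 0.25 for SHR against ACTH, and Anxa8 -0.22 to 0.0668 and Anxa11 -0.11 to 0.0131 for ACTH against WKY.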
